A study of Mus musculus
Rattus norvegicus and Rattus norvegicus and Mus musculus with 18 samples.

Results

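The genes described here encode the enzymes and transporters that carry glucose through glycolysis to lactate, through the tricarboxylic acid (TCA) cycle and through the pentose phosphate pathway. They were read in 4T1 tumors, which are mouse, and in the rats that carried them. The members were a list of 41 gene symbols, looked up by symbol in the deposited mouse and rat tables. Of 17672 mouse genes, 41 were members, under 40 symbols, because Aldoa had 2 identifiers. Of 14876 rat genes, 32 were members; the symbols absent from the rat table included Gpi1, Gapdh, Eno2, Slc2a3, Pcx, Ogdh, Fh1 and Pgd, and Gpi was absent from the mouse table. Gpi1 and Gpi are the mouse and rat names of glucose-6-phosphate isomerase.

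4T1 is an established mouse mammary carcinoma line that spreads to the lung. The cells had been grafted into the mammary fat pads of SRG hosts, and tissue was taken after 27 days. SRG rats lack functional Rag2 and Il2rg, and with them T, B and natural killer cells, in the tumor hosts of every group. The labels give the genotype of all samples as wildtype and the treatment as no treatment, and give no age. Tumors from 5 rats were dissected into a necrotic core and a non-necrotic rim (5 libraries each), and lungs that held metastases gave another 5 libraries. Rat mammary gland with no graft (2 libraries) and a pellet of 4T1 cells (1 library) were the controls of a single species. Mouse reads stand for the cancer cells and rat reads for the host.

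In glycolysis, hexokinase traps glucose in the cell, phosphofructokinase commits it to breakdown, and pyruvate kinase releases pyruvate. Lactate dehydrogenase then makes lactate, which monocarboxylate transporters move across the membrane, or pyruvate dehydrogenase sends the carbon into the TCA cycle in the mitochondrion. The pentose phosphate pathway branches off early and yields NADPH and ribose. Many glycolytic genes are textbook targets of hypoxia-inducible factors, and tumors and activated myeloid cells are known for high glycolysis.

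Each tumor and lung library held 15346400 to 26669410 mouse reads and 3146720 to 10015352 rat reads on the genes of these tables. In the controls, 1.78 and 1.96% of the gland reads were counted on mouse genes and 0.718% of the pellet reads on rat genes. These reads were taken as strayed to the wrong species. The pellet's rat reads included the muscle markers Myh4 (3120 reads), Acta1 (1212 reads) and Ckm (662 reads). In the pellet, Tnnt3 had 654 rat reads and 5 mouse reads, and Mylpf had 411 rat reads and 28 mouse reads. Whether all of the pellet's rat reads were strayed mouse reads was not tested. The rates of stray reads on rat genes, which are taken from the pellet, may therefore be too high. The library labelled lung of Rat3789 stood apart in the rat table. Its 5 alveolar and airway markers, Sftpc, Sftpa1, Sftpb, Ager and Scgb1a1, summed to 18.7 CPM (counts scaled to the size of the library), against 8557 to 15820 CPM in the other 4 lungs. Its 4 fibroblast markers summed to 8788 CPM, against 736 to 2114 CPM in those lungs and 15220 to 31350 CPM in the rims. The lung counts and the lung calls below are therefore given with and without that library. Values by library are listed in the order Rat3867, Rat3869, Rat3875, Rat3876 and Rat3877 for core and rim, and Rat3789, Rat3869, Rat3875, Rat3876 and Rat3877 for lung. All are normalized CPM, scaled separately for mouse and rat, so a mouse level is not compared with a rat level. In such bulk tissue, a change in the number of cells of a type and a change in RNA per cell cannot be told apart.

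Host reads moved toward these enzymes in the core, while core and rim overlapped in the share of tumor reads. Member genes took 1.95% ± 0.139 of the rat reads of a core (SD, n = 5), 1.04% ± 0.157 of those of a rim and 0.851% ± 0.152 of those of a lung. The core libraries lay at 1.79 to 2.14% and the rims at 0.885 to 1.27%, with no overlap. By branch, upper glycolysis took 0.562% ± 0.0581 of rat reads in the core against 0.233% ± 0.0475 in the rim, and lower glycolysis 0.727% ± 0.0631 against 0.423% ± 0.0642. In mouse reads the same shares over all members were 1.52% ± 0.127 in core, 1.44% ± 0.172 in rim and 1.24% ± 0.16 in lung, and core and rim overlapped. The mouse TCA cycle genes, with the cytosolic isocitrate dehydrogenase gene Idh1 counted, differed in direction from that total. They took 0.124 to 0.135% of mouse reads in the cores and 0.143 to 0.17% in the rims. The share without Idh1 was not calculated.

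**Figure D1:**
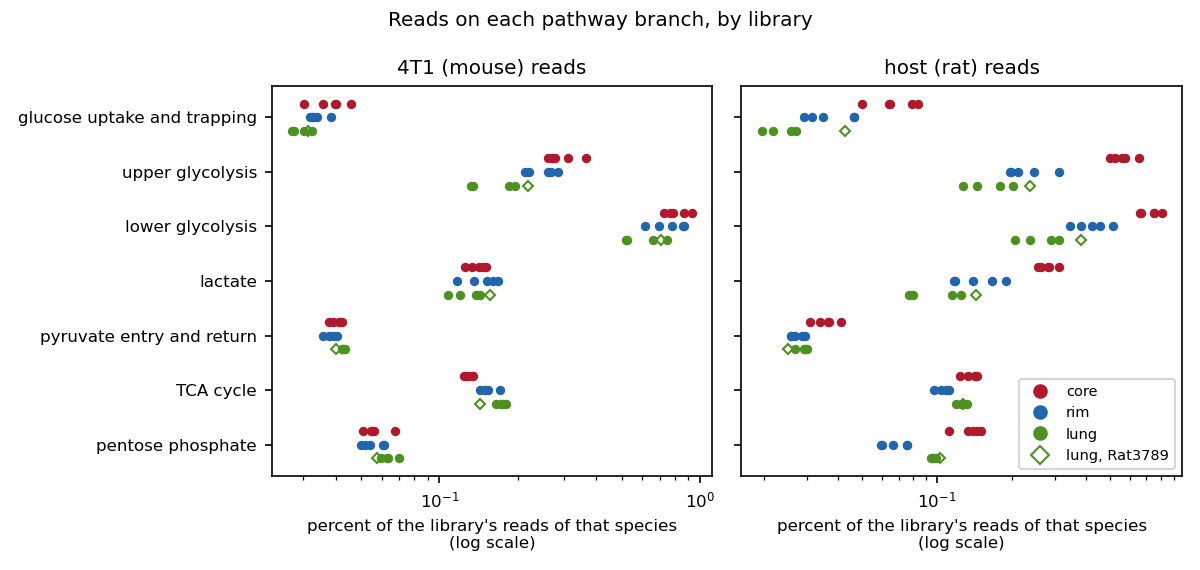
Percent of each library's mouse reads (left) and rat reads (right) that fell on the member genes of each pathway branch, on a log axis; each point is 1 library, and the open diamond is the library labelled lung of Rat3789. Rat cores lie to the right of rat rims in every branch, and mouse cores lie to the left of mouse rims in TCA cycle genes, with the cytosolic Idh1 counted.

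Per kilobase of exon, the mouse members in the rim ranged from lower glycolysis at the top to transporters that were barely read. Pkm, pyruvate kinase, had 502 CPM per kb in the rim, Pgk1, phosphoglycerate kinase, 476, and Aldoa, the main aldolase, 424. Ldha, the lactate dehydrogenase subunit that favours lactate, had 362 CPM per kb and its partner Ldhb 7.76. Among TCA genes, Idh1, a cytosolic isocitrate dehydrogenase, led with 72.3 CPM per kb, followed by its mitochondrial counterpart Idh2 with 64.3. Glycolytic genes have many processed pseudogenes, and the counting is not known to use strand, so reads shared with copies or with genes that overlap on the other strand (Aldoa, Gapdh, Tpi1, Gpi1, Hk1, Pfkp, Mdh1, Pck2 and Pdha1 among them) may enter these levels.

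Between core and rim, few tumor members changed. Of 39 mouse members tested, 3 were higher in the core, 4 were lower and 32 were not called at an adjusted p under 0.05 (limma, Benjamini-Hochberg over all genes tested). Among all 13070 mouse genes tested, 10.1% were called higher and 9.63% lower, so the members' counts lay near or below the background. The median difference was 0.04 on the log2 scale over the members and 0.01 over all genes.

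In glucose trapping, Hk2, the inducible hexokinase (chr6:82725025-82774454, GRCm38), stood at 200.2, 156, 232, 184 and 221 CPM in the cores and 141, 158, 156, 137 and 129 CPM in the rims. It rose in the core by 0.45 ± 0.12 (log2 ± SE, adjusted p = 0.0285), and its groups overlapped only through Rat3869, whose core was slightly below its own rim. The call was lost when any 1 of Rat3867, Rat3875, Rat3876 or Rat3877 was left out (adjusted p up to 0.147 over all alternatives). Hk1, the constitutive hexokinase, was 222, 158, 253, 172 and 185 CPM in the cores and 202, 160.2, 232, 179.8 and 201 CPM in the rims (0.01 ± 0.08, adjusted p = 0.944). The glucose transporter Slc2a3 had at most 4 reads in a core or rim, and was not tested.

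Upper glycolysis held 5 positive and 2 negative differences of 7, none of the positive ones called. The gene called was Aldoc, the brain-type aldolase (chr11:78322968-78327781), with 32.2, 31.96, 65.4, 49.3 and 32.6 CPM in the cores and 75.3, 72.6, 87.3, 67.2 and 60.8 CPM in the rims. Aldoc fell by 0.84 ± 0.15 (adjusted p = 0.00664) and was lower in the core of 5 of 5 rats, although the core of Rat3875 exceeded the rim of Rat3877. Aldoa went the other way without passing the test, at 1663, 1470, 1939, 1349 and 1388 CPM in the cores and 1022, 1334, 1269, 1059 and 1494 CPM in the rims (0.34 ± 0.13, adjusted p = 0.11). The phosphofructokinases did not pass the test either. Pfkl, the liver-type subunit, was 670.5, 468, 756, 558 and 596 CPM in the cores against 458, 480.4, 492, 469 and 545 CPM in the rims (0.30 ± 0.12, adjusted p = 0.103). Pfkp, the platelet-type subunit, was 143, 108, 185, 134 and 128 CPM in the cores against 85.6, 104, 154, 94.8 and 139.7 CPM in the rims (0.29 ± 0.13, adjusted p = 0.152). Gpi1 (0.31 ± 0.12) and Pfkm (0.26 ± 0.13) were not called, and in 4 of 5 rats the core was above the rim for each of Gpi1, Pfkl, Pfkm, Pfkp and the main Aldoa gene.

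Lower glycolysis gave 1 call. Eno2, the neuronal-type enolase (chr6:124760053-124769673), was 82.8, 37.5, 118, 72.99 and 77.1 CPM in the cores and 18.1, 39.05, 45.9, 26.5 and 29.8 CPM in the rims. It rose by 1.27 ± 0.26 (adjusted p = 0.0125), again with Rat3869 as the exception in which core and rim were alike. It was not called when Rat3876 and Rat3877 were both left out (adjusted p = 0.0647). Eno1, the ubiquitous enolase, stood at 1853, 1614, 2001, 1557 and 1561 CPM in the cores and 1268, 1425, 1735, 1383 and 2280 CPM in the rims (0.11 ± 0.15, adjusted p = 0.644). Tpi1, Gapdh, Pgk1, Pgam1 and Pkm were not called, with differences between -0.07 (Gapdh) and 0.30 (Pkm).

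At the lactate end, the import and export gene Slc16a1, which encodes monocarboxylate transporter 1, was 174, 236, 173, 209.5 and 197 CPM in the cores and 256, 243, 227, 277 and 274 CPM in the rims. Slc16a1 fell by 0.37 ± 0.10 (adjusted p = 0.0289) and was lower in the core of 5 of 5 rats, but the groups overlapped. The call was lost without any 1 of Rat3867, Rat3875, Rat3876 or Rat3877 (adjusted p up to 0.148 over all alternatives). Ldha was 1207, 1275, 1420, 1191 and 1074 CPM in the cores and 909, 1229, 1390, 1064 and 1398 CPM in the rims (0.06 ± 0.12, adjusted p = 0.787). Ldhb was 13.4, 10.9, 13.9, 11.1 and 10.2 CPM in the cores and 14.04, 18.96, 7.93, 10.6 and 9.36 CPM in the rims (0.02 ± 0.21, adjusted p = 0.95). Slc16a3, the lactate exporter MCT4, had 1 to 11 mouse reads in the cores, 5 to 11 in the rims and 4 to 15 in the lungs, and 7 in the pellet. Reads strayed from rat would account for 301% of its mouse reads in the cores and 49.4% in the rims at the rate seen in the glands, so its tumor level was not detectable apart from stray reads.

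Among genes that carry pyruvate into or out of the cycle, the 5 mouse members were not called. Their differences were all positive, from 0.04 for Pdha1, a subunit of pyruvate dehydrogenase, to 0.41 for Pcx, pyruvate carboxylase, and the lowest adjusted p was 0.151 for Dlat. The TCA cycle had 10 negative differences of 11 and 2 calls, the only tumor members whose core and rim libraries did not overlap (7.25% of all mouse genes had every core below every rim, and 7.08% every core above). Idh1, the cytosolic enzyme that makes alpha-ketoglutarate and NADPH (chr1:65158616-65186500), was 114, 105, 114, 134 and 139.8 CPM in the cores and 187, 207, 248, 195 and 164 CPM in the rims, and fell by 0.72 ± 0.13 (adjusted p = 0.00789). Fh1, fumarate hydratase (chr1:175600374-175625635), was 56.9, 70.5, 59.03, 76.5 and 67.7 CPM in the cores and 88.97, 94.6, 109, 99.3 and 97.1 CPM in the rims, and fell by 0.57 ± 0.10 (adjusted p = 0.00709). Every core library of both genes was below every rim library. Sdha, the catalytic subunit of succinate dehydrogenase, was lower in the core of 5 of 5 rats without passing the test (-0.27 ± 0.09, adjusted p = 0.0727). The remaining 8 members lay between -0.21 (Sdhb) and 0.06 (Sucla2).

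In the pentose phosphate pathway, Pgd, which makes NADPH and ribulose-5-phosphate, was 210.2, 277, 225, 167 and 209 CPM in the cores and 140.2, 159, 174, 145 and 195 CPM in the rims. Pgd rose by 0.41 ± 0.12 (adjusted p = 0.0365) and was higher in the core of 5 of 5 rats, with overlap between groups. The call was lost without any 1 of Rat3867, Rat3869, Rat3875 or Rat3876 (adjusted p up to 0.13 over all alternatives). Tkt (-0.02 ± 0.10) and Taldo1 (-0.15 ± 0.12) were not called. Of the 7 calls, Aldoc, Fh1 and Idh1 held under every alternative tried.

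**Figure D2:**
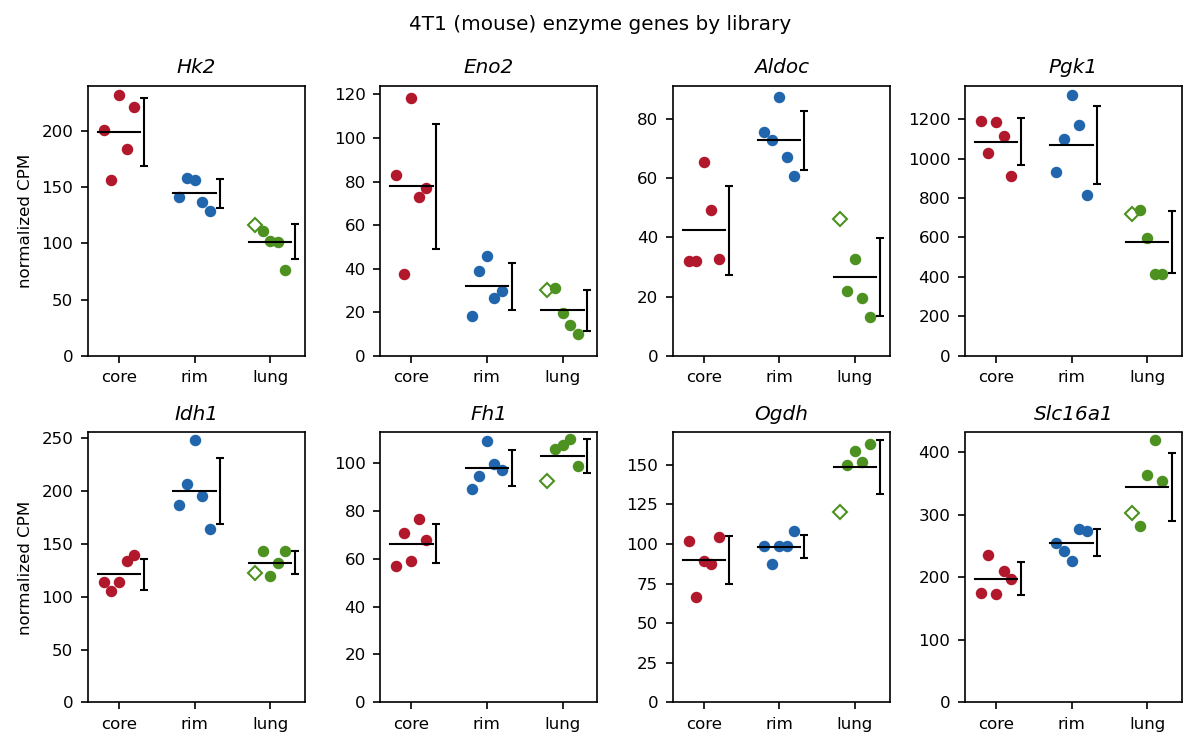
Normalized CPM of 8 mouse members in each core, rim and lung library; points are libraries, the line is the mean and the bar the SD of 5 libraries, and the open diamond is the library labelled lung of Rat3789. Every core lies below every rim for Idh1 and Fh1, and every lung lies above every rim for Ogdh and Slc16a1.

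Other mouse genes moved in the same samples. All 5 mitosis markers were lower in the core (summed level 394 to 683 CPM in cores, 1213 to 1753 CPM in rims), 3 of 4 epithelial markers were lower (2263 to 3729 CPM against 3839 to 4742 CPM), and 6 of 6 tested hypoxia-response genes outside glycolysis were higher (1383 to 2804 CPM against 847 to 1334 CPM). Their part in the results for the enzymes was not tested.

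In the host, by contrast, most members rose in the core. Of 32 rat members tested, 23 were higher, 2 were lower and 7 were not called, against 17.5% higher and 20.1% lower among all 13559 rat genes tested. The median difference was 0.61 over the members and 0.00 over all genes (log2). For 23 members every core library was above every rim library, as for 11.8% of all rat genes (Mdh1, not called, is among them and Cs, called, is not), and for 2 every core was below every rim (14.6%). Of the 25 calls, 19 held under every alternative.

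Hk2 in the host was 562, 449, 766, 555 and 706 CPM in the cores and 242, 379, 296, 218 and 381 CPM in the rims, with no overlap. It rose 2.02-fold (1.01 ± 0.16, adjusted p = 0.00201). Hk1 was 99.2, 90.3, 103, 65.96 and 91.2 CPM in the cores and 85.5, 101, 82.7, 74.2 and 83.2 CPM in the rims (0.07 ± 0.10, adjusted p = 0.641).

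The largest host difference lay in upper glycolysis. Aldoa was 3524, 3781, 4143, 3186 and 2911 CPM in the cores and 1166, 1869, 1235, 1132 and 1412 CPM in the rims, a rise of 2.6-fold (1.38 ± 0.15, adjusted p = 0.000279). Gpi was 1562, 1672, 1838, 1249 and 1416 CPM in the cores and 552, 936, 703, 515 and 676 CPM in the rims, a rise of 2.32-fold (1.21 ± 0.12, adjusted p = 0.00021). For both genes the lowest core was well above the highest rim. Pfkl was 569, 430.3, 536, 424 and 537 CPM in the cores and 229, 276, 249, 184 and 258 CPM in the rims (1.07 ± 0.11, adjusted p = 0.000241). Pfkp was 129.6, 99.7, 116, 95.6 and 107 CPM in the cores and 56.1, 71.3, 61.1, 55.9 and 74.1 CPM in the rims (0.79 ± 0.12, adjusted p = 0.00154). Both phosphofructokinase genes rose without overlap. Aldoc, at 33.4, 51.8, 45.95, 33.2 and 30.6 CPM in the cores and 27.9, 37.7, 42.2, 36.3 and 30.1 CPM in the rims, was not called (0.15 ± 0.12, adjusted p = 0.36).

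Pfkm, the muscle-type phosphofructokinase, varied widely among host libraries. It was 46.5, 21.3, 56.8, 109 and 12.5 CPM in the cores and 40.97, 42.3, 34.4, 50.8 and 18.98 CPM in the rims (0.08 ± 0.29, adjusted p = 0.846). The 5 skeletal muscle markers summed to 1028, 164, 1015, 3825 and 41.2 CPM in the same cores, and to 30.9 to 972 CPM in the rims, so the core highest in Pfkm was also the highest in muscle markers. With the pellet's rat reads taken as strayed, expected stray reads came to 167% of the rat Pfkm reads in the cores and 73.4% in the rims. Since the pellet's rat reads included muscle markers, the origin of its 138 rat Pfkm reads was not known, and these shares may be too high. Aldoa is also abundant in muscle, and the part of muscle RNA in its values was not tested.

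All 5 lower glycolysis genes in the rat table rose. Pgam1, phosphoglycerate mutase, was 1156, 1239, 1295, 904 and 1030 CPM in the cores and 446, 601, 483, 467 and 639 CPM in the rims (1.096 ± 0.12, adjusted p = 0.000396). Pkm rose by 0.84 ± 0.12 (adjusted p = 0.00127) and Pgk1 by 0.77 ± 0.11 (adjusted p = 0.000961). Eno1 was 2363, 2504, 2439, 1955 and 2047 CPM in the cores and 1454, 1856, 1615, 1161 and 1497 CPM in the rims (0.59 ± 0.11, adjusted p = 0.00385). These groups did not overlap. The fifth gene, Tpi1, was read at only 2.79, 4.88, 3.66, 3.86 and 2.65 CPM in the cores and 0.705, 2.28, 2.11, 1.58 and 1.85 CPM in the rims (1.14 ± 0.36, adjusted p = 0.0363). Expected stray reads, at a rate resting on 8 rat reads in the pellet, were 54.1% of its core reads and 73.8% of its rim reads. The call was lost with them subtracted, with DESeq2, and also without any 1 of Rat3867, Rat3869, Rat3875 or Rat3876.

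The host lactate genes differed in direction. Slc16a3 was 445, 636, 411, 331 and 379.5 CPM in the cores and 157, 267, 191, 132 and 159.6 CPM in the rims, and rose 2.44-fold (1.29 ± 0.09, adjusted p = 7.01e-05). Ldha was 2305, 2624, 2371, 2025 and 2096 CPM in the cores and 984, 1616, 1249, 964 and 1409 CPM in the rims (0.90 ± 0.13, adjusted p = 0.00106). Slc16a1 was 135, 108, 145, 114 and 141 CPM in the cores and 69.4, 85.01, 77.3, 61.9 and 88.5 CPM in the rims (0.75 ± 0.11, adjusted p = 0.00115). All these cores were above all these rims. Ldhb, the subunit that favours pyruvate, was the reverse at 3.28, 3.31, 7.47, 6.64 and 3.91 CPM in the cores and 7.95, 8.21, 7.90, 19.97 and 10.8 CPM in the rims. Ldhb fell by 1.15 ± 0.27 (adjusted p = 0.0113), with every core below every rim. Stray reads were expected at 164% of its few core reads and 52.0% of its rim reads. That rate rests on 7 rat reads in the pellet and, as for Pfkm, may be too high. How much of the Ldhb level in the core was stray was therefore not determined. The call was lost without Rat3876 and Rat3877 (limma adjusted p = 0.142).

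Pyruvate dehydrogenase subunits rose in the host core: Pdha1 by 0.63 ± 0.10 (adjusted p = 0.00171) and Pdhb by 0.45 ± 0.09 (adjusted p = 0.00509), while Dlat was not called (0.20 ± 0.09, adjusted p = 0.121). Pck2, the mitochondrial phosphoenolpyruvate carboxykinase that returns oxaloacetate toward glucose synthesis, was 20.3, 22.9, 13.8, 18.1 and 17.5 CPM in the cores and 41.98, 39.7, 31.1, 44.5 and 36.5 CPM in the rims. Pck2 fell by 1.07 ± 0.12 (adjusted p = 0.000387) with no overlap, and this call held under every alternative.

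Of 9 host TCA cycle members, 6 rose. Mdh2, mitochondrial malate dehydrogenase, rose the most, from 123 ± 12.1 CPM in the rims to 203 ± 12.8 CPM in the cores (SD, n = 5; 0.73 ± 0.09, adjusted p = 0.000532). Idh2 (0.47 ± 0.09), Sdhb (0.46 ± 0.08), Cs (0.41 ± 0.08), Idh3a (0.38 ± 0.09) and Sdha (0.29 ± 0.08) followed. Without Rat3876 and Rat3877, the calls of Cs, Idh2, Idh3a and Sdha were lost. That of Sdha was also lost without Rat3867 or Rat3877 and with DESeq2. Idh1, one of the 2 TCA calls in the tumor cells, was not called in the host (-0.22 ± 0.14, adjusted p = 0.274), nor were Sucla2 and Mdh1.

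Both pentose phosphate genes in the rat table rose. Tkt, transketolase, was 734 to 1030 CPM in the cores and 370.2 to 535 CPM in the rims, a 2.05-fold rise (1.03 ± 0.10, adjusted p = 0.000188). Taldo1, transaldolase, was 351 to 583 CPM in the cores and 208 to 279.5 CPM in the rims (0.92 ± 0.12, adjusted p = 0.000788). Neither gene's groups overlapped.

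**Figure D3:**
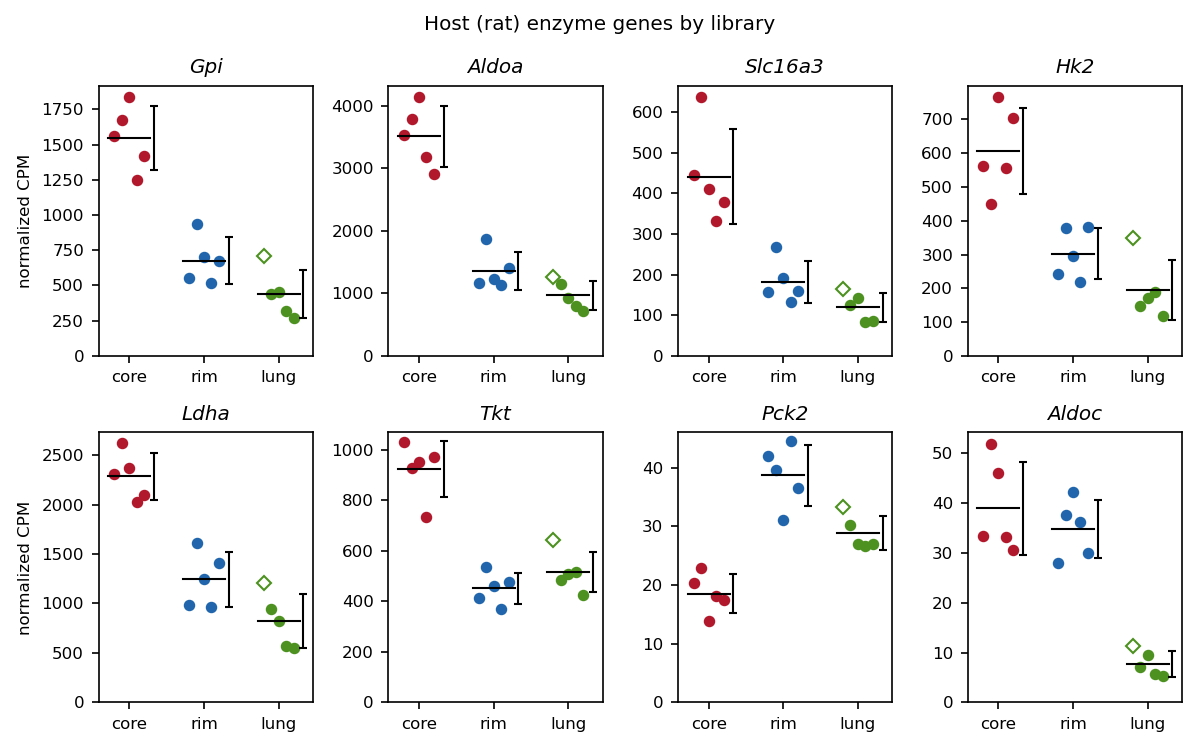
Normalized CPM of 8 rat members in each core, rim and lung library; points are libraries, the line is the mean and the bar the SD of 5 libraries, and the open diamond is the library labelled lung of Rat3789. Every core lies above every rim for Gpi, Aldoa, Slc16a3, Hk2, Ldha and Tkt and below every rim for Pck2, while Aldoc overlaps.

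Host cell type markers differed between the same regions. All 4 fibroblast markers were lower in the core (summed level 2200 to 7329 CPM, against 15220 to 31350 CPM in the rims). All 4 neutrophil markers were higher, with sums of 168 to 1184 CPM in the cores and 121 to 169 CPM in the rims. Among 4 macrophage markers, Cd68 and Csf1r were higher and Adgre1 and Mrc1 lower, and 5 of 7 hypoxia-response genes outside glycolysis were higher (2399 to 3889 CPM against 1321 to 2088 CPM). The part of these markers in the enzyme results was not tested.

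A list of other genes of these pathways was read in the same way. Of 44 tested in rat, 15 were higher in the core, 5 lower and 24 not called, against 17.5% higher and 20.1% lower of all rat genes. Higher were Hk3, the hexokinase of myeloid cells (1.58 ± 0.09, adjusted p = 5.99e-05), the glucose transporter Slc2a1 (1.49 ± 0.23), Pfkfb3, which makes the activator of phosphofructokinase (1.101 ± 0.14), and the pyruvate dehydrogenase kinase Pdk1 (0.98 ± 0.14), among others. Lower were Me1 (-1.20 ± 0.21), Pdk2, Pdp1, Aco1 and Acly. In mouse, 4 of 40 were higher and 5 lower, near the 10.1% higher and 9.63% lower of all mouse genes. Slc2a1 (0.68 ± 0.18, adjusted p = 0.0289) and Pfkfb3 (1.05 ± 0.18, adjusted p = 0.00576) rose there, along with the low-level Pgam2 and Me3. Me2 (-0.85), Acly (-0.52), Pfkfb1, Sdhc and Pgls were lower.

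**Figure D4:**
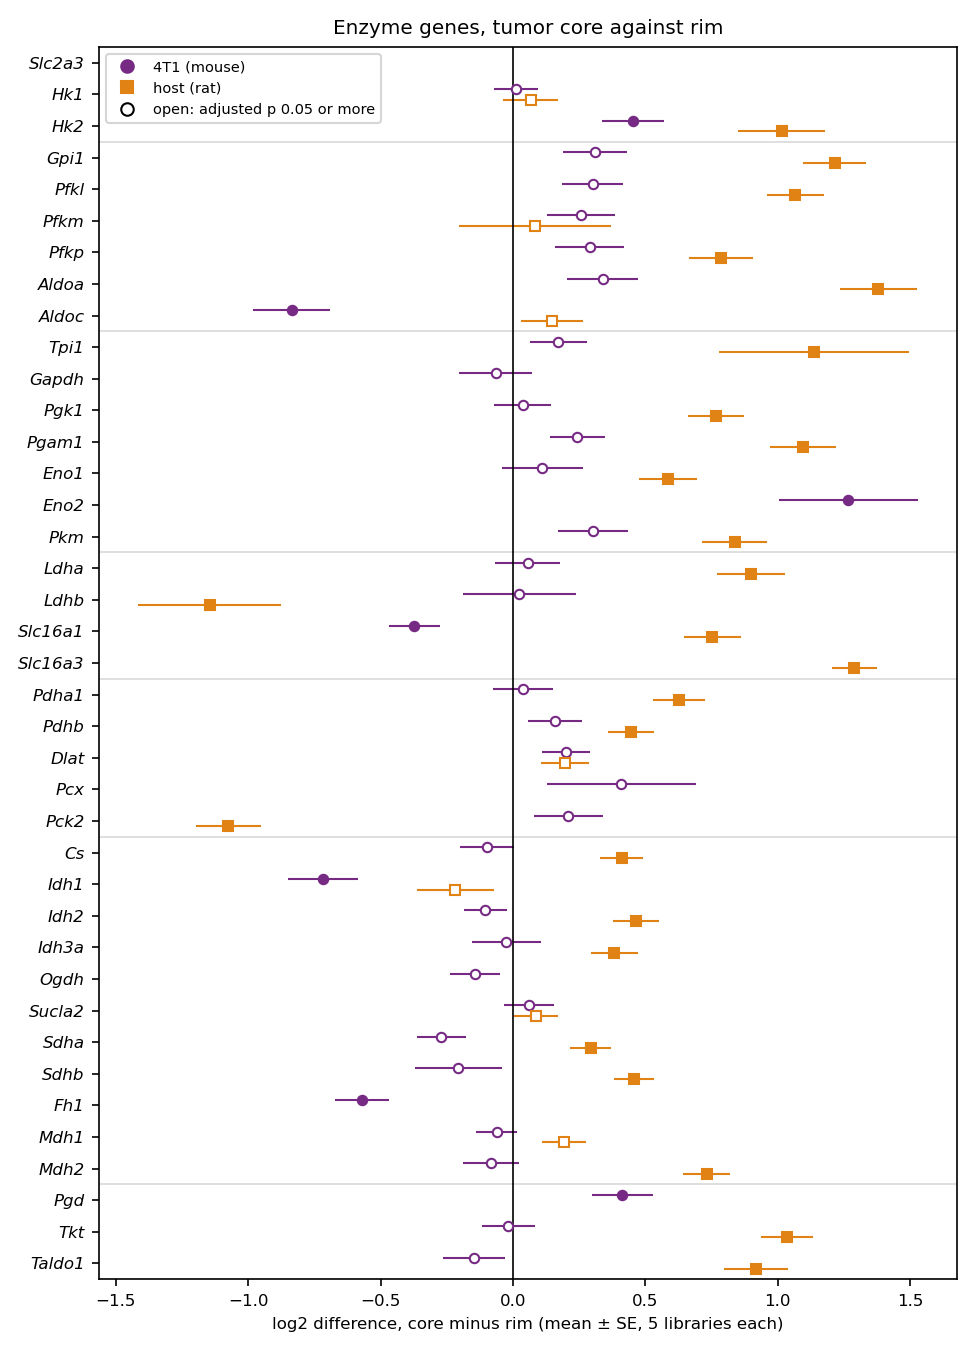
Core minus rim difference (log2, mean ± SE over 5 rats) of the members named in the text, in tumor (circles) and host (squares) reads, in pathway order from glucose trapping at the top to the pentose phosphate pathway at the bottom; filled symbols passed the adjusted p of 0.05. Most squares lie to the right of the circles of the same gene, with Ldhb and Pck2 far to the left.

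Because each library gave both species, the host change between core and rim could be set against the tumor change within each rat. This comparison was added after the values above were seen. The difference of the 5 within-rat changes was tested with limma over 9745 genes found in both tables, of which 16.7% had a host change above the tumor change and 19.2% below. Of 34 members tested, with Gpi1 paired to Gpi, Fh1 to Fh and Pcx to Pc, the host change was above in 23, below in 2 and not called in 9. The number above ranged from 18 (without Rat3875) to 24 over the alternatives.

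For Slc16a1 the host change exceeded the tumor change by 1.13 ± 0.16 (adjusted p = 0.00132), since the transporter fell in tumor cells and rose in the host. Taldo1 (1.06 ± 0.11), Tkt (1.05 ± 0.12), Aldoa (1.04 ± 0.09) and Gpi1 with Gpi (0.90 ± 0.08) differed to a like extent, each in 5 of 5 rats. Fh1 and Fh differed by 0.90 ± 0.13 (adjusted p = 0.0012), the tumor gene being lower and the host gene (0.33 ± 0.09) higher in the core. Hk2, called in both species, rose further in the host, by 0.56 ± 0.14 (adjusted p = 0.0141), but this was lost without Rat3867, Rat3875 or Rat3876. The host change was below the tumor change for Pck2 (-1.28 ± 0.16, adjusted p = 0.000741) and Ldhb (-1.17 ± 0.26, adjusted p = 0.00953). For Ldhb, how much of the host reads in the core was stray was not determined.

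Tumor cells in the lung were compared with those in the rim without pairing, since Rat3789 gave no tumor library used here and Rat3867 no lung. Of 39 mouse members tested, 3 were higher in lung, 11 were lower and 25 were not called, against 9.91% higher and 10.2% lower of all 12970 genes tested. All but 1 of the 11 lower genes were glycolytic or lactate genes. Without the library labelled lung of Rat3789, 5 were higher, 11 lower and 23 not called (10.8 and 11.2% of all genes). With the rat as a block, over the 4 rats that gave both tissues, 4 were higher and 13 lower (9.23 and 9.67% of all genes). For 2 members every lung was above every rim and for 7 every lung was below, against 6.70 and 6.75% of all genes. The rim libraries are shared with the comparison above.

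Hk2 was 116, 111, 102, 101 and 75.8 CPM in the lungs, below every rim, and fell by 0.52 ± 0.11 (adjusted p = 0.00889; -0.57 ± 0.11 without the library of Rat3789). Hk1, at 197, 181, 209, 166 and 180.3 CPM in the lungs, was not called (-0.06 ± 0.10, adjusted p = 0.735). Aldoc was 46.3, 22.02, 32.7, 19.4 and 12.96 CPM in the lungs, also below every rim, and fell by 1.57 ± 0.27 (adjusted p = 0.00306; -1.81 ± 0.22 without Rat3789). Its highest lung value came from the library of Rat3789.

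Aldoa was 1053, 929, 828, 569.6 and 564 CPM in the lungs and fell by 0.68 ± 0.18 (adjusted p = 0.0232; -0.80 ± 0.17 without Rat3789). Pfkl was 495, 354, 326, 237 and 216 CPM in the lungs and fell by 0.65 ± 0.19 (adjusted p = 0.0302; -0.82 ± 0.14 without Rat3789). Their lung and rim libraries overlapped through the library of Rat3789, which was the highest lung for both. Gpi1 also fell (-0.51 ± 0.13, adjusted p = 0.0177; -0.55 ± 0.13 without Rat3789). Pfkp was 118, 109, 116, 124 and 87.05 CPM in the lungs and was not called (-0.03 ± 0.16, adjusted p = 0.91).

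In lower glycolysis all 7 differences were negative and 4 were called. Pgk1 was 717, 742, 596, 415 and 415 CPM in the lungs against 931, 1097, 1322, 1172 and 817 CPM in the rims, with no overlap, and fell by 0.91 ± 0.19 (adjusted p = 0.00715; -1.003 ± 0.19 without Rat3789). Gapdh (-0.56 ± 0.16), Tpi1 (-0.54 ± 0.17) and Pgam1 (-0.49 ± 0.12) were the others; without Rat3789 these were -0.58 ± 0.17, -0.64 ± 0.16 and -0.54 ± 0.13. Eno1, at 1577, 1725, 1398, 1133 and 1286 CPM, was not called (-0.17 ± 0.16, adjusted p = 0.501). Eno2, at 30.01, 30.9, 19.7, 14.1 and 10.1 CPM, was not called either (-0.66 ± 0.33, adjusted p = 0.169), nor was Pkm. With the rat as a block, Eno2 was called lower (-1.008, adjusted p = 0.0137). Leaving out the lung library of Rat3877 ended the calls of Aldoa, Gpi1, Pfkl, Tpi1 and Gapdh, and leaving out that of Rat3876 ended those of Aldoa, Pfkl, Tpi1 and Gapdh. Without the rim of Rat3869, Aldoa, Pfkl, Tpi1, Gapdh and Ldhb were not called. Pfkl was also lost without the rim of Rat3867 or Rat3875 or the lung of Rat3875, Ldhb without the rim of Rat3867, Gapdh without the rim of Rat3875, and Tpi1 without the rim of Rat3875, Rat3876 or Rat3877 or the lung of Rat3875. Without Rat3876 and Rat3877, Aldoa, Pfkl, Gpi1, Tpi1, Gapdh, Pgam1 and Ldhb were not called.

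Ldhb was 1.45, 7.49, 4.57, 4.97 and 5.39 CPM in the lungs, below every rim, and fell by 1.46 ± 0.39 (adjusted p = 0.0226). The library labelled lung of Rat3789 was far the lowest, and without it the difference was -1.07 ± 0.25 (adjusted p = 0.0136). Ldha, at 1266, 1092, 949.6, 741 and 655 CPM in the lungs, was not called (-0.37 ± 0.18, adjusted p = 0.169). The fit with the rat as a block called Ldha lower (-0.584, adjusted p = 0.0323). Slc16a1 was 303, 283, 363, 419 and 354 CPM in the lungs, above every rim, and rose by 0.42 ± 0.11 (adjusted p = 0.0187; 0.47 ± 0.11 without Rat3789). The call was lost without Rat3876 and Rat3877 (adjusted p = 0.092).

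The TCA cycle genes went both ways. Ogdh, the alpha-ketoglutarate dehydrogenase subunit, was 120.2, 149.7, 159, 152 and 163 CPM in the lungs against 99.05, 87.2, 98.8, 98.7 and 108 CPM in the rims, with no overlap. Ogdh rose 1.51-fold (0.59 ± 0.09, adjusted p = 0.00185; 0.67 ± 0.08 without Rat3789) and held under every alternative. Idh1 was 123, 143, 119.8, 132 and 143 CPM in the lungs, below every rim, and fell by 0.59 ± 0.11 (adjusted p = 0.00348; -0.56 ± 0.11 without Rat3789). Of 11 TCA members, 8 had positive differences; without the library of Rat3789, Mdh2 (0.32 ± 0.07, adjusted p = 0.0137) and Sdhb (0.51 ± 0.15, adjusted p = 0.0335) were called higher as well. Fh1 was 92.4, 106, 107, 109.8 and 98.5 CPM in the lungs and was not called (0.07 ± 0.08, adjusted p = 0.538). Pgd, at 200.5, 232, 194, 193 and 186 CPM, rose by 0.31 ± 0.10 (adjusted p = 0.0453), which did not hold without Rat3789 (adjusted p = 0.0608), nor without any 1 of the other lungs or the rims of Rat3867, Rat3869 or Rat3876. The call was also lost with the rat as a block, upper-quartile scaling, edgeR or no filter on low values.

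Mouse epithelial markers were lower in the lungs too (4 of 4, summed level 1866 to 2816 CPM against 3839 to 4742 CPM), 1 of 6 hypoxia-response genes was lower (435 to 1075 CPM against 847 to 1334 CPM), and mitosis markers summed to 1168 to 1770 CPM in the lungs against 1213 to 1753 CPM in the rims. Their part in the enzyme results was not tested. Among other pathway genes, 3 of 39 were higher and 5 lower, near the 9.91% higher and 10.2% lower of all mouse genes. Pdk1 (-1.58 ± 0.44, adjusted p = 0.027) and Slc2a1 (-0.75 ± 0.21, adjusted p = 0.0301) had the largest falls.

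**Figure D5:**
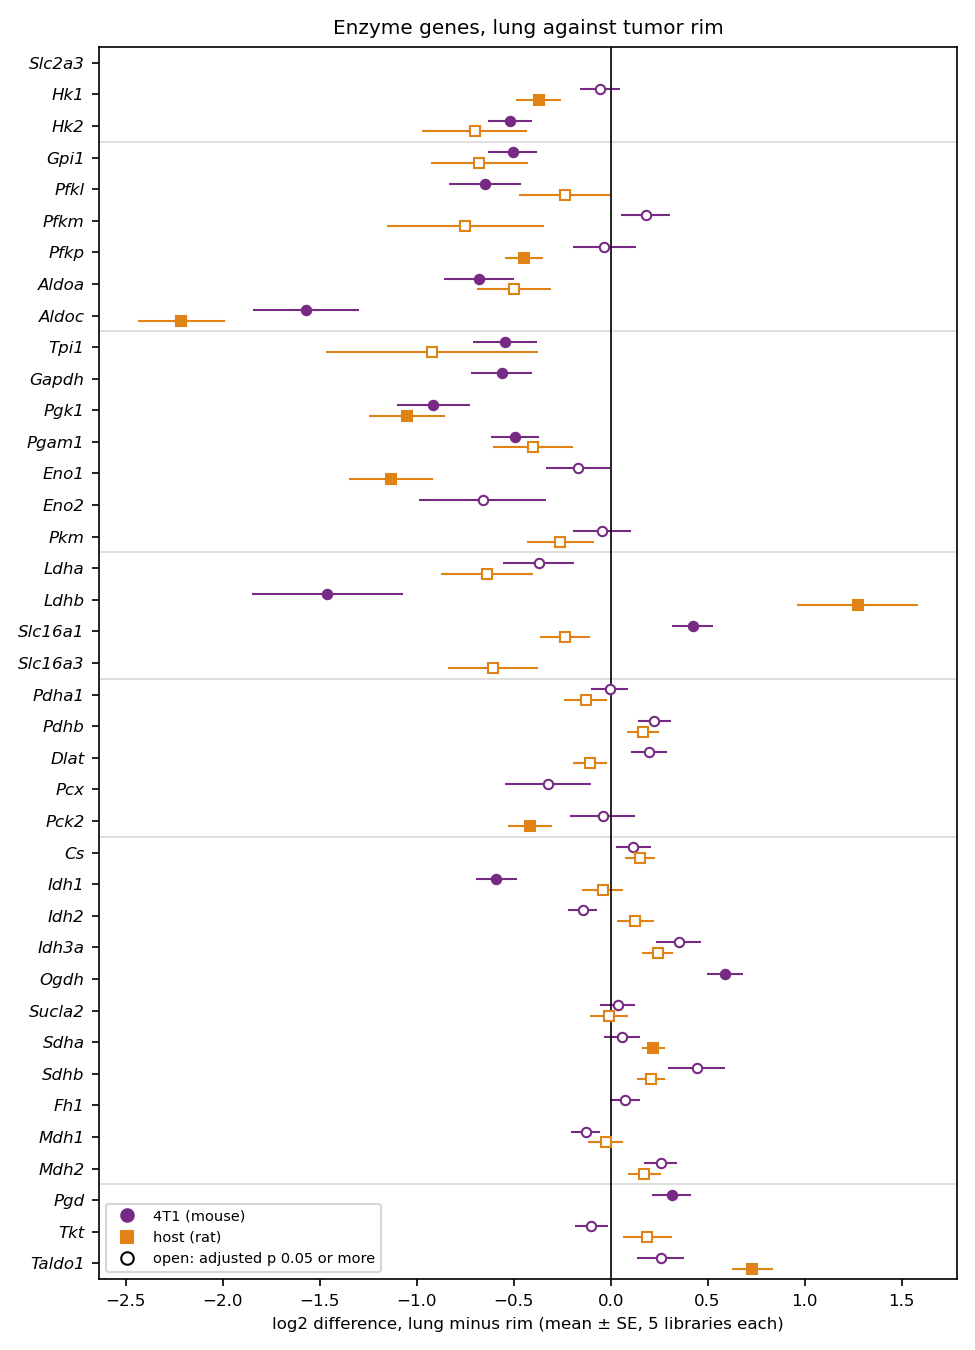
Lung minus rim difference (log2, mean ± SE, 5 libraries each) of the members named in the text, in tumor (circles) and host (squares) reads, in pathway order as in the core plot; filled symbols passed the adjusted p of 0.05. The glycolytic genes lie mostly to the left of 0 and the TCA cycle genes on both sides of it.

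The host part of lung against rim compares lung tissue with tumor stroma. Of 32 rat members, 3 were higher in lung, 6 lower and 23 not called, against 10.5% higher and 11.6% lower of all 13841 genes tested. This count rested on the library labelled lung of Rat3789: without it, 4 were higher, 12 lower and 16 not called (16.7 and 14.3% of all genes), and the median over the members was -0.335 on the log2 scale, against -0.237 with it. With the rat as a block, over the 4 rats that gave both tissues, 2 were higher and 15 lower (15.1 and 12.9% of all genes). For 4 members every lung was above every rim and for 4 every lung was below, against 6.10 and 8.57% of all genes. Scaling matters here as well. Total-count scaling moved the median of all genes from 0.0197 to 0.149 (log2), and called 8 members higher and 4 lower.

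Aldoc had the largest host difference. It was 11.3, 7.06, 9.51, 5.65 and 5.25 CPM in the lungs, below every rim, and fell by 2.21 ± 0.22 (adjusted p = 0.00013; -2.37 ± 0.20 without Rat3789). Eno1 was 1062, 784, 699.7, 572 and 448 CPM in the lungs and fell by 1.13 ± 0.22 (adjusted p = 0.00444; -1.29 ± 0.18 without Rat3789). Pgk1 was 792, 532, 492, 443 and 369 CPM in the lungs against 990.3, 1322, 1127, 834 and 1052 CPM in the rims, and fell by 1.05 ± 0.20 (adjusted p = 0.00384; -1.21 ± 0.15 without Rat3789). All their lungs were below all their rims. Pfkp was 45.7, 51.02, 47.8, 43.1 and 44.97 CPM in the lungs and fell by 0.45 ± 0.10 (adjusted p = 0.00963; -0.44 ± 0.11 without Rat3789). Pck2, at 33.4, 30.3, 26.96, 26.7 and 27.01 CPM, and Hk1, at 82.9, 57.1, 66.96, 58.3 and 65.7 CPM, were lower too (-0.42 ± 0.11 and -0.37 ± 0.12; -0.47 ± 0.12 and -0.46 ± 0.10 without Rat3789), with overlap. The call of Hk1 was lost without any 1 rim but that of Rat3876 or any 1 lung but that of Rat3789. That of Pck2 was lost without the rim of Rat3867, Rat3869 or Rat3876 or the lung of Rat3875, Rat3876 or Rat3877. Without Rat3876 and Rat3877, Hk1, Pck2, Pfkp and Pgk1 were not called. Total-count scaling ended the calls of Hk1 and Pck2, and limma-voom or subtracting stray reads that of Hk1.

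The library labelled lung of Rat3789 was the highest lung for Hk2, Gpi, Aldoa, Pfkl, Ldha and Slc16a3, among other members. Hk2 was 348, 148, 172, 190.0 and 118 CPM in the lungs, with -0.70 ± 0.27 (adjusted p = 0.091), and -0.94 ± 0.20 without that library (adjusted p = 0.00401). Aldoa was 1254, 1157, 919, 799.9 and 713 CPM, with -0.50 ± 0.19 (adjusted p = 0.0876), and -0.60 ± 0.18 without it (adjusted p = 0.0275). Ldha was 1206, 944, 827, 574 and 549 CPM, with -0.64 ± 0.24 (adjusted p = 0.0786), and -0.79 ± 0.21 without it (adjusted p = 0.0138). All these were also called lower with the rat as a block, a fit that holds no library of Rat3789, and Aldoa and Ldha by DESeq2 with it. Slc16a3 was 163, 125, 143, 82.2 and 85.7 CPM and Gpi 272 to 707 CPM in the lungs, and both were likewise called lower without it. Also without that library, Pgam1 was called lower (-0.57 ± 0.16, limma adjusted p = 0.0188) and Idh3a higher (0.26 ± 0.09, limma adjusted p = 0.0489). Pfkl was 358, 203, 223, 148 and 136 CPM and Slc16a1 77.97, 69.3, 66.3, 54.1 and 56.8 CPM in the lungs, and neither was called with it or on leaving it out. With the rat as a block, Pfkl was called lower (-0.457, adjusted p = 0.045).

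Higher in lung were Ldhb, Taldo1 and Sdha. Ldhb was 13.9, 37.3, 29.2, 23.2 and 26.1 CPM in the lungs and rose by 1.27 ± 0.31 (adjusted p = 0.015; 1.48 ± 0.28 without Rat3789). Without that library all lungs exceeded all rims, but the call over all 5 was lost with limma-voom and with stray reads subtracted (adjusted p up to 0.0515 over all alternatives). Taldo1 was 399, 416, 416, 349.8 and 473 CPM in the lungs against 208, 256, 266, 229 and 279.5 CPM in the rims, and rose by 0.73 ± 0.10 (adjusted p = 0.000915; 0.74 ± 0.11 without Rat3789) with no overlap. Sdha was 186, 180.2, 187, 178 and 184 CPM in the lungs against 163, 148, 166, 149 and 160.3 CPM in the rims, and rose by 0.22 ± 0.06 (adjusted p = 0.0244; 0.21 ± 0.07 without Rat3789), which was lost with the rat as a block (adjusted p = 0.0628) and without the rim of Rat3869 or Rat3876 or the lung of Rat3875 or Rat3877. Host neutrophil markers were higher in these lungs (4 of 4, 404 to 5262 CPM against 121 to 169 CPM) and fibroblast markers lower (4 of 4, 736 to 8788 CPM), as were 5 of 7 hypoxia-response genes (830.5 to 1011 CPM against 1321 to 2088 CPM); their part in the enzyme results was not tested. Of 46 other pathway genes, 6 were higher and 2, Slc2a1 (-1.27 ± 0.33) and Pgm1 (-1.26 ± 0.23), were lower. Among all rat genes, 10.5% were higher and 11.6% lower.

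Ratios of isozymes within a library do not depend on how the library was scaled. Differences in 22 log2 ratios were tested by exact two-sided permutation over libraries, for which 5 against 5 cannot give p below 0.00794, with Benjamini-Hochberg adjustment over the 22. In tumor cells the ratio of Hk2 to Hk1 was -0.15 to 0.26 in the cores, -0.64 to -0.02 in the rims and -1.25 to -0.71 in the lungs (log2). It was higher in core than rim by 0.44 (exact permutation, adjusted p = 0.0476), and the lung minus rim difference was -0.47 (exact permutation, adjusted p = 0.0249). The ratio of Aldoc to Aldoa was lower in both, with differences of -1.17 in core (exact permutation, adjusted p = 0.0249) and -0.89 in lung (exact permutation, adjusted p = 0.0388). Eno2 to Eno1 was higher in core by 1.15 (exact permutation, adjusted p = 0.0476). Pfkp to Pfkl was not called, with a lung minus rim difference of 0.62 (exact permutation, adjusted p = 0.0672; 0.0437 without Rat3789).

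In the host, how much of the Ldhb reads in the core was stray was not determined (expected at 164% of them, and at 52.0% in the rim). The ratio of Ldha to Ldhb is therefore given as a value of the libraries only. It was 8.94 ± 0.64 in the cores, 6.90 ± 0.78 in the rims and 4.99 ± 0.82 in the lungs (log2, SD, n = 5). The core minus rim difference was 2.04 (exact permutation, adjusted p = 0.0249) and the lung minus rim difference -1.91 (exact permutation, adjusted p = 0.0388). Hk2 to Hk1 was higher in core by 0.95, Aldoc to Aldoa differed by -1.23 and Pfkp to Pfkl by -0.28, each at the same adjusted p of 0.0249 by exact permutation. Slc16a3 to Slc16a1 differed by 0.54 (exact permutation, adjusted p = 0.0672). In lung against rim, Aldoc to Aldoa differed by -1.71 (exact permutation, adjusted p = 0.0249). Without Rat3789, the lung ratios called with it were called too. In all, 11 of the 22 differences were called, and leaving out any 1 tumor rat left none at an adjusted p under 0.05 by exact permutation, with 7 to 10 at an unadjusted p under 0.05. Once both groups lose a library, exact permutation cannot give p below 0.0286. The loss of the calls is therefore largely set by the smaller groups, and does not show which ratios depend on 1 rat.

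The controls give a reference for the tumor and host levels, without replicates for the pellet. In RPM, reads scaled to the library total over the same genes, 19 of the 41 mouse members were higher in the pellet than in all 15 tissue libraries, 6 were lower than in all and 16 lay within. Of all 17672 mouse genes, 18.3% were above and 36.9% below all tissue libraries. The pellet's members took 1.82% of its mouse reads (95% Clopper-Pearson interval 1.817 to 1.827%, counting error only). Of the 11 TCA members, 8 were above all tissue libraries, and Mdh2 had 421 RPM, against 161 to 286 in tissue. The low ones were Hk1, Hk2, Pfkm, Pfkp, Aldoc and Eno2. Hk2 had 37.0 RPM in the pellet and 80.2 to 218 in tissue, Eno2 had 5.55 and 10.6 to 112, and Aldoc had 12.4 and 13.7 to 86.3. In the normal glands, the rat members took 4.51 and 3.05% of rat reads. The skeletal muscle markers Myh4 (88460 and 64430 RPM), Acta1 (36080 and 25200 RPM) and Ckm (21840 and 13620 RPM) were high in both glands. Among members, Aldoa had 26210 and 15850 RPM and Pfkm 4166 and 3139, and no test was made against the glands.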

How the data were processed

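RNA sequencing reads were assigned to mouse or rat and counted per gene. Per the submitters' processing notes, the tools were Trim Galore, STAR, featureCounts and limma on GRCm38 and Rnor_6.0; neither versions, nor the tool that split the species, nor the strand setting, are stated in what was used here. The values the authors deposited for tumors and lungs are a signal, normalized CPM. Dividing by a constant of the library and taking away 0.5 turned 100% of the values into whole reads (within 0.01 reads), so the deposited values already hold 0.5 added reads, which understates fold changes of low genes, and no more was added. For glands and pellet the authors deposited raw counts. No column was left unmapped (0).

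Log2 values of genes with at least 1 CPM in at least 5 compared libraries were fitted with limma 3.58.1 in R 4.3.3, mouse and rat separately, with Benjamini-Hochberg adjustment over all genes tested and a threshold of 0.05. Core and rim came from the same animals per the labels, so the fit had the rat as a block; deviations of the same rat's libraries correlated at -0.170 to 0.221 in mouse and 0.033 to 0.302 in rat. The lung fit had no block. The difference between the host and tumor changes was added after seeing the data. Isozyme ratios were tested by exact permutation. edgeR 4.0.16 and DESeq2 1.42.0 were run on the recovered counts as alternatives, and the scripts were tested on simulated data. Expected stray reads came from the gland and pellet libraries. Mouse gene lengths and positions are from GENCODE M21 (GRCm38).

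Members are described by branch; 1 of them enters the counts and shares but is not reported here. Values in every library are given for up to 5 called higher and 5 called lower per comparison with the largest difference, and for the isozyme genes. The members and lists were chosen with earlier results of these data known.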

Additional observations from a re-analysis of the deposited data

Results flagged for a closer look

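Among 213 groups of 5 libraries examined for a library far from the rest, 9 had one, and chance gives about 1 in 20. In tumor reads, Pcx in the core of Rat3869 was 1.76 CPM (3.84 to 4.61 CPM in the other cores), Idh3a there was 126 CPM (85.9 to 91.5 CPM) and Sdhb there 114 CPM (71.2 to 72.4 CPM). Idh3a in the lung of Rat3869 was 137 CPM (117 to 123 CPM), Pck2 in the lung of Rat3876 was 56.2 CPM (31.5 to 38.5 CPM), and Idh2 in the rim of Rat3875 was 191 CPM (156 to 165 CPM). In host reads, Ldhb in the rim of Rat3876 was 19.97 CPM (7.90 to 10.8 CPM), Idh2 in the core of Rat3869 was 197 CPM (244.5 to 259 CPM) and Idh3a in the lung of Rat3869 was 106.5 CPM (82.8 to 89.5 CPM).

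The host change between core and rim differed from the tumor change in the members below, by limma's test of the difference within rats. In glycolysis and its transport step the host minus tumor difference (log2) was 0.56 for Hk2, 0.90 for Gpi1 with Gpi, 0.76 for Pfkl, 0.50 for Pfkp, 1.04 for Aldoa, 0.98 for Aldoc, 0.97 for Tpi1, 0.73 for Pgk1, 0.85 for Pgam1, 0.47 for Eno1, 0.53 for Pkm, 0.84 for Ldha, 1.13 for Slc16a1 and -1.17 for Ldhb. Among pyruvate and TCA cycle genes it was 0.59 for Pdha1, -1.28 for Pck2, 0.51 for Cs, 0.57 for Idh2, 0.57 for Sdha, 0.66 for Sdhb, 0.90 for Fh1 with Fh and 0.82 for Mdh2. In the pentose phosphate pathway it was 1.05 for Tkt and 1.06 for Taldo1. Leaving out 1 rat ended the call of Cs and Eno1 (Rat3875, Rat3876 or Rat3877), Hk2 (Rat3867, Rat3875 or Rat3876), Pdha1 (Rat3867 or Rat3875) and Sdhb (Rat3875). For Aldoc the gap came with a fall in tumor reads (-0.84) and no call in the host (0.15). Host Tpi1 and Ldhb had few reads. Expected stray reads were 54.1% of the core reads and 73.8% of the rim reads for Tpi1, and 164% and 52.0% for Ldhb.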

How the results depend on the processing

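No difference of a member changed sign while called under any alternative run. In tumor core against rim, 3 members were higher, and 1 without Rat3876 and Rat3877; leaving out 1 rat gave 1 to 3. In tumor lung against rim, 3 were higher, against 7 with total-count scaling, 6 with DESeq2 and 1 without Rat3876 and Rat3877, and 2 to 6 on leaving out 1 library; 11 were lower, against 4 without Rat3876 and Rat3877 and 6 to 11 on leaving out 1 library. In host core against rim, 2 were lower, and 1 without Rat3876 and Rat3877. In host lung against rim, 3 were higher, against 8 with total-count scaling, 5 with edgeR and 5 with DESeq2; 6 were lower, against 15 with the replicate block, 10 with DESeq2, 2 without Rat3876 and Rat3877 and 4 to 12 on leaving out 1 library (12 without the library labelled lung of Rat3789). Of the isozyme ratios, 11 were called, 0 by exact sign flips with the pairing as a block (lowest p 0.0625, the smallest they can give) and 0 to 12 on leaving out 1 rat. Once both groups lose a library, exact permutation cannot give p below 0.0286. The cause of these shifts was not tested. Without the block, core against rim gave equal counts (3 and 4 in tumor, 23 and 2 in host). With total-count scaling the calls over all genes split 1139 higher to 1515 lower in tumor core (1326 to 1259 as reported), 1717 to 1108 in tumor lung (1285 to 1318) and 2435 to 1255 in host lung (1458 to 1607). Few reads on the gene limit host Tpi1 and Ldhb and tumor Slc16a3 and Slc2a3. Host Pfkm is limited by doubt over its stray reads.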
